A study of Mus musculus with 4 samples.

Results

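IN8 is 1 of 12 subtypes of inhibitory neuron in the authors' annotation of single-nucleus RNA sequencing of the mouse superior colliculus. Its members are the nuclei that the deposited table of nuclei assigns to the subtype IN8: 210 of 3459 inhibitory neurons (6.07%, exact 95% Clopper-Pearson interval 5.30 to 6.92) among 9724 nuclei in all. Tissue came from C57BL/6J mice with no genetic change or treatment named in the labels, on embryonic day 19 (E19) or on day 4 (P4), day 8 (P8) or day 21 (P21) after birth. Several animals were pooled into a single library for every age, so stages are compared library against library without replicates, and the intervals given here cover counting error only. The subtype was made by clustering these same nuclei, so its difference from other neurons is described and not tested.

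The superior colliculus is a layered midbrain structure that joins visual and other sensory input to orienting movements. Its inhibitory neurons make GABA with the glutamate decarboxylases Gad1 and Gad2 and load it into vesicles through Slc32a1. They include local interneurons and cells that project out of the colliculus, and transcription factors expressed from their birth onwards are used to tell their classes apart. In the weeks around birth such neurons end migration and axon growth, form synapses and change their channels and receptors.

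The 4 libraries held 19277512 to 31325079 UMIs (unique molecular identifiers, the counted RNA molecules) and 2249 to 2585 nuclei each. IN8 contributed 66, 43, 61 and 40 nuclei at E19, P4, P8 and P21, with 412453, 378528, 760190 and 663472 UMIs. Its median depth per nucleus was 6149, 8920, 12030 and 15890 UMIs, against 6057, 7643, 9133 and 13976 in the other inhibitory neurons, so both groups were read more deeply at older stages. A total of 9 barcodes occurred in more than 1 library, and 0 of the IN8 nuclei carried one of them. By the counts below, 20 IN8 nuclei (5, 1, 3 and 11 by stage) held 2 or more UMIs of the vesicular glutamate transporters or 10 or more UMIs of glial markers, and these are called mixed nuclei. The limits are fixed UMI counts that do not scale with depth, which was highest at P21. The counts of mixed nuclei are therefore not compared between stages, and none is given for the other inhibitory neurons.

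The share of IN8 among inhibitory neurons was 7.39% (5.76 to 9.31) in the E19 library. In the P4, P8 and P21 libraries it was 5.83% (4.25 to 7.77), 5.61% (4.32 to 7.14) and 5.41% (3.89 to 7.29). The 4 intervals overlap, so no difference in share was resolved at this number of nuclei. Within the subtype, the authors' clusters of the whole tissue divided the nuclei into 3 main sets: 73 lay in cluster 2, 77 in cluster 10 and 57 in cluster 11, with the other 3 in cluster 29. Most nuclei of those clusters belonged to other subtypes, above all IN1 in cluster 2, IN6 in cluster 10 and IN4 in cluster 11. The mix differed between stages. Cluster 10 held 41 of 66 IN8 nuclei at E19 (62.1%, 49.3 to 73.8) and 13 of 61 at P8 (21.3%, 11.9 to 33.7), while cluster 2 held 10 of 66 at E19 (15.2%, 7.51 to 26.1) and 31 of 61 at P8 (50.8%, 37.7 to 63.9). The intervals of E19 and P8 do not overlap in either cluster, so stage comparisons of a gene that differs between the 3 sets also carry this change of mix. The clusters within IN8 were looked at after the data had been seen.

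**Figure D1:**
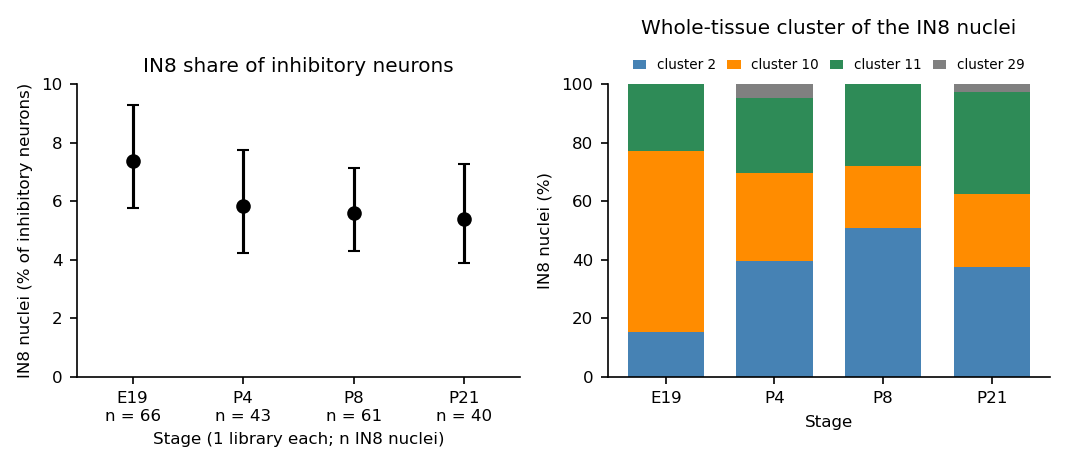
Left, IN8 nuclei as a percent of inhibitory neurons (vertical axis) at each stage (horizontal axis), points with exact 95% Clopper-Pearson intervals, 1 library per stage; the shares run from 7.39% at E19 to 5.41% at P21 and their intervals overlap. Right, the percent of IN8 nuclei in each whole-tissue cluster at each stage, as stacked bars; cluster 10 holds 62.1% at E19 and 21.3% at P8.

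The label was checked against its markers. A UMI of Gad1, Gad2 or Slc32a1 was found in 208 of 210 IN8 nuclei. After thinning every nucleus to 2300 UMIs, to set all at 1 depth, the share was 81.9% in IN8, 81.7% in the other inhibitory neurons and 8.40% in excitatory neurons, which should lack these genes. Gad1 stood at 296, 219, 183 and 170.3 UMIs per 1000000 (CPM) in IN8 at E19, P4, P8 and P21, Gad2 at 529, 404, 443 and 347 CPM and Slc32a1 at 126, 71.3, 49.99 and 48.2 CPM. The same genes read 282, 265, 289 and 239.8, 559, 496, 444 and 368 and 109, 92.4, 55.1 and 80.1 CPM in the other inhibitory neurons, in the same order. Summed over the 3 genes, the level was 950.4, 695, 676 and 565 CPM in IN8 and 950.3, 853, 789 and 688 CPM in the others, equal at E19 and lower in IN8 at P4, P8 and P21, where the counting intervals do not overlap. Slc17a6, the vesicular glutamate transporter of excitatory collicular neurons, was seen in 7.62% of thinned IN8 nuclei, 6.53% of other inhibitory and 39.9% of excitatory neurons. The summed level of the 3 transporters Slc17a6, Slc17a7 and Slc17a8 in IN8 was 67.9, 44.9, 14.5 and 10.6 CPM, against 47.9, 44.4, 28.1 and 12.9 CPM in the other inhibitory neurons, with 1 of the 3 genes at 0 UMIs in each library. The cholinergic markers were at 0 UMIs in all 4 libraries, and the serotonergic markers at 1 UMI in all. Summed oligodendrocyte markers were highest at P21 in both groups, at 381 CPM in IN8 and 358 CPM in the other inhibitory neurons at P21, from 70.3 and 68.7 CPM at E19.

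The deposited table also carries labels transferred by the authors from 2 reference data sets. In the set named Vectorseq, label 19 was given to 118 of 210 IN8 nuclei (56.2%, 49.2 to 63.0) and to 79 of 3249 other inhibitory neurons (2.43%, 1.93 to 3.02), and all of those 79 were IN4. IN8 thus held 59.9% of the nuclei with that label. A further 69 IN8 nuclei (32.9%) had label 1, which 735 other inhibitory neurons (22.6%) shared. The labels followed the whole-tissue clusters: 59 of the 73 nuclei in cluster 2 had label 1, while 54 of 77 in cluster 10 and 55 of 57 in cluster 11 had label 19. In the set named Transseq, 126 IN8 nuclei (60.0%) and 56.7% of the other inhibitory neurons had the label ISC5. The label ESC2 was given to 57 IN8 nuclei (27.1%) and ESC1 to 26 (12.4%), against 24.1% and 18.9% of the other inhibitory neurons. At P21, 21 IN8 nuclei had ESC2 and 19 had ISC5. With shares this near to those of the others, that set did not set IN8 apart.

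Levels in IN8 were compared with those in the 11 other inhibitory subtypes together, library by library. UMIs were summed over nuclei, and ratios are log2 of IN8 to other inhibitory neurons with 5 CPM added to both. Of 1649 genes with 100 CPM or more on the higher side in every library, 11 had a log2 ratio of 1 or more in each of the 4 libraries (0.667% of those compared) and 22 had a ratio of -1 or less in each (1.33%). Without the P21 library the first count was 17. With thinned nuclei, as described above, Tcf4, Tmem132c and Zfp536 of the 11 did not pass, and Adcy8, Plxdc2 and Tle4 of the 22. Sema5b did not pass with the nuclei, or the 3 clusters of IN8, weighted alike, nor Tcf4 with the other subtypes weighted alike. The weakest library ranked the genes; Bcl11a was the last inside the limit, at 1.08, and Arpp21 the first outside it, at 0.98.

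The 11 higher genes included 3 of the 23 factors compared from the list of transcription factors, Tfap2b, Bcl11a and Nfib. Tcf4 and Zfp536, also transcription factors, are in none of the lists and did not pass with thinned nuclei. Tfap2b, an AP-2 family factor (ENSMUSG00000025927, chr1:19208914-19238576, plus strand, GRCm38), stood at 1457, 861, 798 and 243 CPM in IN8 at E19, P4, P8 and P21. The other inhibitory neurons held 278, 167, 221 and 77.8 CPM, which gives log2 ratios of 2.37, 2.33, 1.83 and 1.58. No other inhibitory subtype had a higher mean over the 4 libraries: it was 839.9 CPM in IN8 and 654 in IN9, the next. In thinned nuclei a Tfap2b UMI was found in 76.2% of IN8, 26.4% of other inhibitory and 19.3% of excitatory neurons. Bcl11a, a zinc-finger repressor (ENSMUSG00000000861, chr11:24078056-24174123, plus strand), stood at 1076, 893, 773 and 428 CPM against 311, 199, 299 and 199 CPM. It too was highest in IN8, with a mean of 793 CPM, and next 535 in IN3, and its ratio was smallest at P21 (1.08). Nfib, a nuclear factor I protein (ENSMUSG00000008575, chr4:82290173-82705750, minus strand), stood at 1384, 774, 762 and 677 CPM against 324, 188, 131 and 144 CPM, but IN4 held more of it, with a mean of 1694 CPM against 899 CPM in IN8. The excess of Nfib lay in clusters 10 and 11, and the cluster values are given below. Tcf4, a basic helix-loop-helix factor, had ratios of 1.61, 1.90, 1.54 and 1.18. Clusters 10 and 11 carried it, at 770, 1171.5, 490 and 359 CPM and at 744, 565, 590 and 405 CPM. Cluster 2 held 413, 124, 96.0 and 94.8 CPM. Zfp536, a zinc-finger protein, had ratios of 1.58, 1.54, 1.31 and 1.37, with a higher mean in IN4 (574 CPM) than in IN8 (457 CPM).

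The other 6 higher genes encode secreted, guidance, adhesion and membrane proteins. Fam19a1, which encodes a small secreted chemokine-like protein (ENSMUSG00000059187, chr6:96113154-96657198, plus strand), had the largest ratio in its weakest library of all genes compared. It stood at 3382, 2763, 3337 and 1598 CPM in IN8 and 684, 574, 482 and 310.4 CPM in the other inhibitory neurons, with ratios of 2.30, 2.26, 2.78 and 2.35; the next subtype mean was 963 in IN12, against 2770.1 CPM. Plpp4, a phospholipid phosphatase (ENSMUSG00000070366, chr7:129257031-129391412, plus strand), stood at 361, 330.2, 313 and 258 CPM against 57.1, 67.2, 64.0 and 53.3 CPM. IN10 was close to IN8 for this gene, with a mean of 281 CPM against 316 CPM. Epb41l4a, a FERM-domain protein, stood at 412, 314, 343 and 145 CPM against 83.3, 56.6, 55.7 and 35.7 CPM. Sema5b, a membrane-bound semaphorin that guides axons, stood at 126, 127, 139 and 104 CPM against 46.7, 46.1, 27.2 and 22.7 CPM, and its ratio was higher at P8 and P21 (2.16 and 1.97) than at E19 and P4 (1.34 and 1.37). This gene was carried by cluster 2, at 271, 235, 200.1 and 172 CPM at E19, P4, P8 and P21, against 119, 55.8, 119.8 and 59.0 CPM in cluster 10 and 0, 39.4, 44.6 and 49.95 CPM in cluster 11, and cluster 2 held 15.2% of IN8 nuclei at E19 and 50.8% at P8. Dscaml1, a homophilic adhesion molecule, had ratios of 1.27, 1.64, 1.65 and 1.51 and a higher mean in IN4. Tmem132c, a transmembrane protein, had ratios of 1.40, 1.20, 1.34 and 1.20. Just under the limit in 1 library each were Robo1, the receptor for Slit guidance cues, at 3222, 2356, 2261 and 2151 CPM against 1525, 1278, 925 and 771 CPM, Chn2, a Rac GTPase-activating protein, with ratios of 0.98, 1.28, 1.27 and 1.32, Arpp21, a cAMP-regulated RNA-binding phosphoprotein, with ratios of 1.24, 0.98, 1.17 and 1.05, and the long noncoding RNA Gm44593, with ratios of 1.70, 1.56, 1.23 and 0.94.

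**Figure D2:**
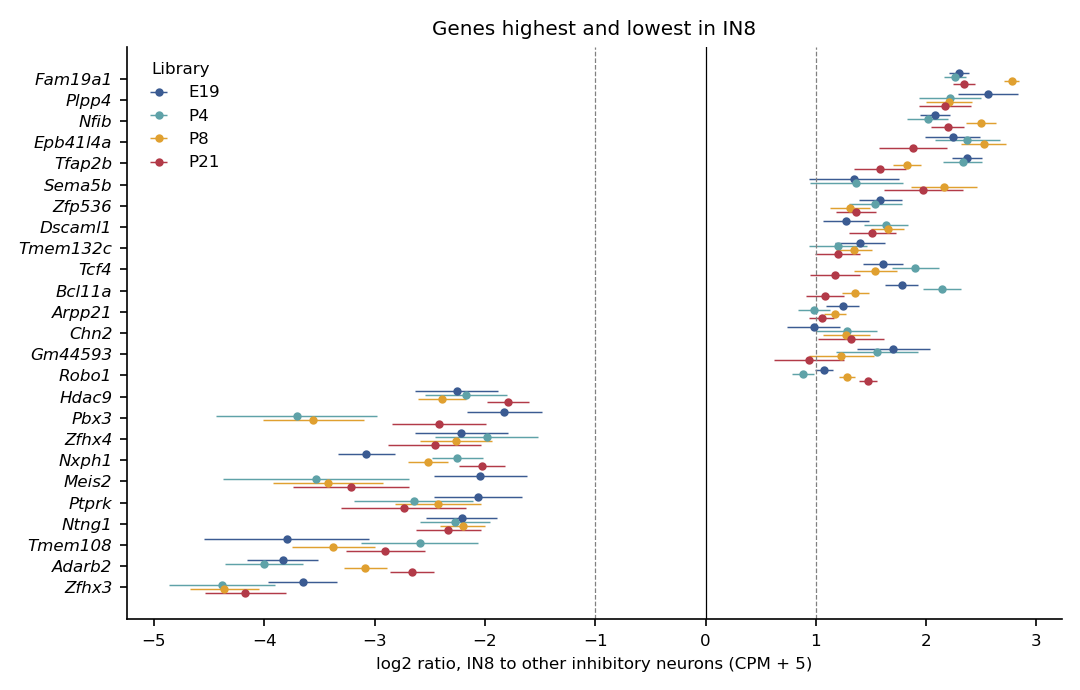
Log2 ratio of CPM (5 CPM added) of IN8 to other inhibitory neurons (horizontal axis) for the 15 genes highest and the 10 lowest in IN8 by their weakest library (vertical axis), 1 point per library with a 95% counting interval; dashed lines mark -1 and 1. Fam19a1 lies above 2 in all 4 libraries and Zfhx3 below -3 in all 4.

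The lower side also held transcription factors. Zfhx3, a large homeodomain and zinc-finger factor (ENSMUSG00000038872, chr8:107942644-108961630, plus strand), stood at 192, 81.9, 96.0 and 78.4 CPM in IN8 and 2464, 1805, 2072 and 1496 CPM in the other inhibitory neurons, with ratios of -3.65, -4.38, -4.36 and -4.17. All 11 other subtypes had a higher mean than IN8, the lowest being IN6 at 145 CPM and the highest IN12 at 5683 CPM, so IN6 was close to IN8. In thinned nuclei a Zfhx3 UMI was found in 17.6% of IN8 and 73.9% of other inhibitory neurons. Its relative Zfhx4 had ratios of -2.21, -1.98, -2.26 and -2.45. The TALE homeodomain factors Meis2 and Pbx3 stood at 99.4, 18.5, 31.6 and 33.2 CPM and 160.0, 29.1, 39.5 and 55.8 CPM, against 425, 266, 386 and 349 CPM and 579, 439, 518 and 319 CPM. Both were nearest to the other inhibitory neurons at E19, with ratios of -2.04 and -1.82. For Pbx3 that E19 level was carried by the 10 nuclei of cluster 2, at 581 CPM (45 UMIs). Clusters 10 and 11 held 73.2 and 26.6 CPM of Pbx3 at E19. Pbx3 and the histone deacetylase Hdac9 (128, 145, 209 and 317 against 633, 670.3, 1117 and 1107 CPM) were lower in IN8 than in each of the 11 other subtypes. Adarb2, a member of the RNA-editing enzyme family, stood at 179, 159, 278 and 292 CPM against 2626, 2611, 2391 and 1872 CPM; its level in the other neurons was carried by some subtypes, up to a mean of 10564 in IN12, and IN2 lay below IN8 at 92.7 CPM. Nxph1, a secreted ligand of neurexins, had ratios of -3.07, -2.25, -2.52 and -2.02. Ntng1, a netrin-G adhesion protein, had ratios of -2.21, -2.27, -2.20 and -2.33, Ptprk, a receptor tyrosine phosphatase, ratios of -2.07, -2.65, -2.42 and -2.74, and Tmem108, a transmembrane protein, ratios of -3.80, -2.59, -3.37 and -2.90.

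The number of leading genes per nucleus is given as a description: the genes were chosen for being high in IN8, so more of them per IN8 nucleus follows from the choice, and no expected number was computed. UMIs of all 5 genes ranked first (Fam19a1, Plpp4, Nfib, Epb41l4a and Tfap2b) were present in 90 IN8 nuclei (42.9%) and in 24 other inhibitory nuclei (0.739%), and exactly 4 of the 5 were present in a further 53 IN8 nuclei (25.2%) and 185 others (5.69%). No IN8 nucleus lacked all 5, while 319 of the others (9.82%) did. These shares are not thinned, and IN8 nuclei were deeper than the others in each library, by ratios of the median UMIs of 1.02, 1.17, 1.32 and 1.14 at E19, P4, P8 and P21.

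The most similar subtypes, by the correlation across 2649 genes of each subtype's log2 deviation from the inhibitory mean, were IN1 (Pearson r = 0.23) and IN4 (r = 0.19), followed by IN6 (0.16) and IN2 (0.15); the least similar was IN7 (-0.36). The order of the first 4 differed between libraries: r by stage was 0.11, 0.19, 0.25 and 0.17 for IN1, 0.14, 0.09, 0.11 and 0.22 for IN4, 0.15, 0.13, 0.16 and 0.11 for IN6 and 0.14, 0.10, 0.17 and 0.14 for IN2. IN1 and IN4 were taken by the value over all libraries. The correlation is across genes, which are not replicates, and subtypes of 1 library share its depth. Against IN1, 19 of 1639 genes were higher in IN8 by a log2 ratio of 1 or more in each library (1.16%) and 19 lower (1.16%). Lef1, the transcription factor of canonical Wnt signalling, stood at 206, 222, 329 and 226 CPM in IN8 and 28.1, 57.7, 88.2 and 46.7 CPM in IN1, and Bcl11a at 184, 83.0, 143 and 82.1 CPM in IN1. Nfib, Fam19a1 and Epb41l4a completed the top of that ranking. On the lower side were Zfhx3, Adarb2, Nxph1, Ptprk and Gpc5, a cell-surface glypican, which stood at 84.9, 135, 225 and 338 CPM in IN8 and 723, 715, 1551 and 1009.7 CPM in IN1.

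Against IN4, 22 of 1629 genes were higher in IN8 in each library (1.35%) and 29 lower (1.78%). Pcdh15, a protocadherin, stood at 3014, 2570.5, 2264 and 1851 CPM in IN8 and 196, 199.6, 231 and 285 CPM in IN4, Robo1 at 515, 401, 330.4 and 231 CPM in IN4, and Vwc2l, a secreted von Willebrand domain protein, at 204, 172, 201 and 129.6 CPM against 25.9, 26.6, 35.3 and 7.05 CPM. Epb41l4a and Plpp4 were the others. Meis2 led the lower side with 1113, 845, 807 and 509 CPM in IN4. Ror1, a Wnt receptor tyrosine kinase, was nearly absent from IN8, at 4.85, 13.2, 2.63 and 1.51 CPM against 322, 184, 145 and 293 CPM, and Zeb2, a zinc-finger repressor, stood at 145, 84.5, 71.0 and 87.4 CPM against 817, 774, 966 and 631 CPM. The noncoding RNA Otx2os1 and Egfem1 followed. Nfib, summed over the IN8 nuclei, was higher than in IN1 and had its highest mean in IN4. The cluster 2 nuclei of IN8 held 361, 24.8, 80.0 and 73.7 CPM of Nfib at E19, P4, P8 and P21. IN1 held 273, 123, 127 and 105 CPM, so the cluster 2 values were below those of IN1 from P4 on.

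The 3 sets of IN8 nuclei shared some of these genes and differed in others. Mean levels over the 4 libraries in clusters 2, 10 and 11 were 721, 957 and 802 CPM for Tfap2b, 724, 868 and 763 CPM for Bcl11a and 253, 297 and 445 CPM for Plpp4, so all 3 sets held them. They were not equal in all: Plpp4 was higher in cluster 11 than in cluster 2 at P4 and P8, where the counting intervals do not overlap, and Tfap2b was higher in cluster 10 than in cluster 2 at P4. Nfib differed more, at 135, 705 and 2562 CPM: it stood at 3758, 2549.8, 2226 and 1715 CPM at E19, P4, P8 and P21 in cluster 11 and 361, 24.8, 80.0 and 73.7 CPM in cluster 2, with no overlap. At P4, P8 and P21 the cluster 2 values were below those of the other inhibitory neurons (188, 131 and 144 CPM). Pax7, a paired-box factor of the dorsal midbrain, was carried by cluster 11, at 412, 565, 416 and 139 CPM, with means of 9.27, 49.97 and 383 CPM in the 3 clusters. Sst, which encodes the peptide somatostatin, averaged 146, 364 and 726 CPM.

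Genes that marked 1 set within IN8 were ranked by the mean level against the next set. Cluster 2 was highest for the cadherins Cdh6 and Cdh23: Cdh6 averaged 760.4, 89.0 and 44.4 CPM over the 3 clusters and Cdh23 859, 103 and 27.1 CPM. The glypican Gpc6 (2274, 334 and 416 CPM) and the transcription factors Foxp2 (446, 85.7 and 26.5 CPM), Npas3 and Tox behaved likewise, as did Lypd1, a modulator of nicotinic receptors. The noncoding RNA C130073E24Rik was also ranked, but its cluster 2 mean rests largely on 10 nuclei at E19. It read 968, 111, 187 and 190 CPM in cluster 2. Its counting interval overlapped those of clusters 10 and 11 at P4 and that of cluster 11 at P21. Cluster 10 was highest for Hgf, the ligand of the Met receptor (11.4, 131 and 5.55 CPM), which read 46.2, 135, 278 and 64.4 CPM at E19, P4, P8 and P21 there. Pde11a, a cyclic nucleotide phosphodiesterase, averaged 14.4, 146 and 1.39 CPM, and Pcdh15 1415, 4238 and 1481 CPM, with Ptprm, Trpc4, Kctd8, Mei4 and the noncoding RNA A330008L17Rik ranked beside them. Cluster 11 was highest for Ntf3, the neurotrophin that binds TrkC (5.98, 8.94 and 252 CPM), at 319, 302, 233 and 155 CPM in the 4 libraries. Egfem1, Fras1, Stk33, Pdzd2, Hs3st3b1, an enzyme of heparan sulfate, and Adam12, a metalloprotease, completed its list with Pax7. Hgf, Pde11a and Ntf3 were also low in the other inhibitory nuclei of their own clusters, at 9.99, 3.92 and 41.7 CPM, whereas Pax7 (413 CPM), Egfem1 (3308 CPM) and C130073E24Rik (513 CPM) were as high or higher in their neighbours.

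**Figure D3:**
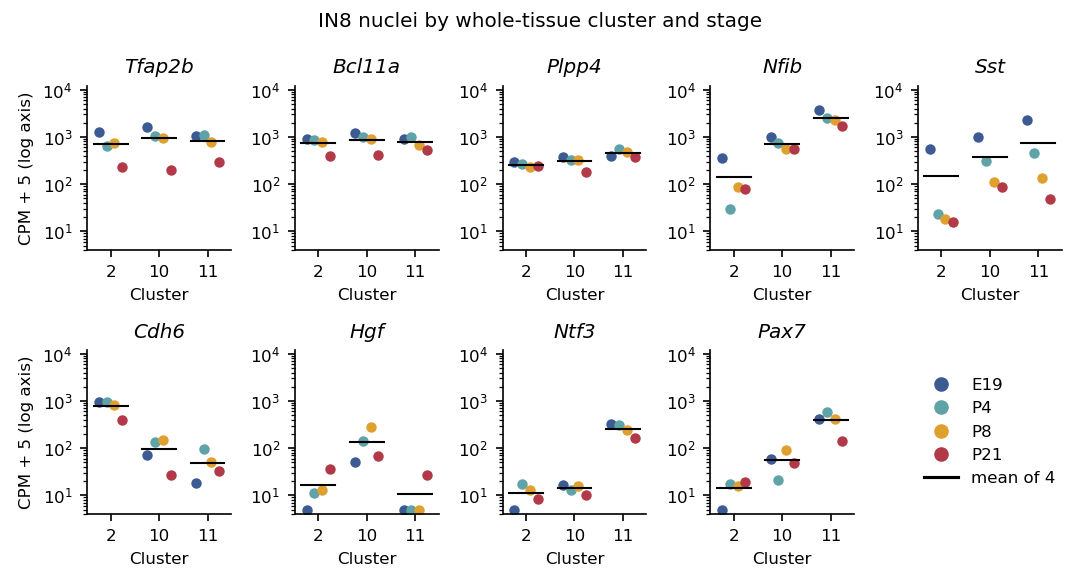
Level in IN8 nuclei of whole-tissue clusters 2, 10 and 11 (horizontal axis) on a log axis of CPM + 5 (vertical axis), 1 point per library coloured by stage, black bar the mean of the 4 libraries. Tfap2b, Bcl11a and Plpp4 are present in all 3 clusters at each stage, with Plpp4 higher in cluster 11 than in cluster 2 at P4 and P8, while Cdh6 is highest in cluster 2, Hgf in cluster 10, and Ntf3, Pax7 and Nfib in cluster 11.

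Each set was then compared with the other inhibitory nuclei of the same whole-tissue cluster (534 nuclei in cluster 2, 238 in cluster 10 and 256 in cluster 11), using means over the 4 libraries. Of 1842 genes, 4 were higher in IN8 by a log2 ratio of 1 or more in all 3 clusters (0.217%) and 4 lower (0.217%). The 4 higher ones were Fam19a1 (ratios of 1.41, 1.46 and 3.15 in clusters 2, 10 and 11), Plpp4 (1.16, 3.02 and 3.45), Epb41l4a (1.24, 2.77 and 4.72) and Tfap2b (1.72, 1.13 and 1.54). All 4 are among the 5 that led the comparison with all other inhibitory neurons, and the fifth, Nfib, is not in the set. Both comparisons use the same IN8 nuclei, and the neighbours in the 3 clusters are part of the other inhibitory neurons. The overlap is therefore partly built in. The 4 lower ones were Meis2 (-1.45, -1.94 and -3.79), Egfem1 (-2.43, -1.5033 and -1.32), Cntn3 (-1.22, -2.03 and -2.07) and Chl1 (-1.03, -1.23 and -1.76), the last pair being contactin and L1-family adhesion molecules. Zfhx3 differed by cluster: IN8 nuclei averaged 111, 92.9 and 134 CPM and the others 1182, 224 and 101 CPM, lower in IN8 in clusters 2 and 10 and not in cluster 11.

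Between stages, IN8 was compared library against library over genes with 100 CPM or more in the higher one. From E19 to P21, 341 of 2462 genes were higher by a log2 ratio of 1 or more (13.9%) and 321 lower (13.0%), with a median ratio of 0.09 over all of them. Of these, 333 and 314 had the same sign in the other inhibitory neurons. The share with the same sign over all 2462 genes was not computed, so nothing is concluded from these 2 counts. From E19 to P4 the counts were 82 higher (3.65%) and 68 lower (3.03%) of 2246, from P4 to P8 20 (0.928%) and 34 (1.58%) of 2156, and from P8 to P21 108 (4.71%) and 116 (5.05%) of 2295. These step counts were more than 1.5 times larger with a minimum of 50 CPM or with thinned nuclei. Such counts compare only with groups of like size, since groups of fewer nuclei had more genes past the limit. Subtypes with 54 to 71 nuclei at E19 had 286 to 336 higher and 293 to 419 lower genes from E19 to P21 (IN3, IN4, IN5 and IN6), against 151 and 255 in IN1 with 266 nuclei at E19.

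The lower side at P21 included genes of growing neurons and a gene typical of radial glia. Tubb2b, a tubulin of young neurons, stood at 936, 391, 142 and 3.01 CPM at E19, P4, P8 and P21 in IN8 and 876, 439.8, 193 and 5.08 CPM in the other inhibitory neurons. Nnat, an imprinted membrane proteolipid, stood at 1004, 459.7, 276 and 16.6 CPM, Tmsb10, which binds actin monomers, at 582, 285, 72.3 and 7.54 CPM, Tubb5 at 582, 343, 125 and 16.6 CPM, Stmn1, which destabilises microtubules, at 645, 259, 124 and 19.6 CPM and Fabp7, a fatty acid binding protein typical of radial glia, at 279, 122, 43.4 and 3.01 CPM. In each of these genes the level at every stage was below that of the stage before, and the other inhibitory neurons gave similar series, with E19 to P21 ratios of -5.22 for Nnat and -5.14 for Fabp7 against -5.55 and -5.15 in IN8. St8sia2, which adds polysialic acid to NCAM, had 93, 50, 52 and 0 UMIs in IN8. With 0 counts taken as 3, its level was at least 49.9-fold lower at P21 than at E19, while the other inhibitory neurons still held 36.8 CPM at P21, from 243 CPM at E19.

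Somatostatin, an inhibitory peptide, was among the lower genes and was higher in IN8 than in the other inhibitory neurons at each stage. Sst (ENSMUSG00000004366, chr16:23889573-23890958, minus strand) stood at 1129.8, 198, 65.8 and 39.2 CPM in IN8 and 164, 51.3, 30.1 and 19.7 CPM in the other inhibitory neurons, ratios of 2.75, 1.85, 1.01 and 0.84. Its E19 to P21 ratio was -4.68 (-5.19 to -4.17) in IN8 and -2.77 in the others. In thinned nuclei an Sst UMI was found in 53.0% of IN8 at E19 and 10.0% at P21, against 16.1% and 4.43% of other inhibitory neurons, and 14.5% and 1.61% of excitatory neurons. The order by stage was the same within each cluster: 542, 18.6, 13.3 and 10.5 CPM in cluster 2, 971, 303, 103 and 80.5 CPM in cluster 10 and 2284, 447, 129 and 44.4 CPM in cluster 11. At P21 those values rest on 3, 15 and 8 UMIs. IN4 was the one subtype with a higher mean, 449.7 CPM against 358 CPM.

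The genes highest at P21 against E19 included those of the cytoskeleton, of receptors and of noncoding RNAs. Coro6, an actin-binding coronin (ENSMUSG00000020836, chr11:77462411-77470484, plus strand), had 0, 5, 29 and 151 UMIs in IN8, or 0, 13.2, 38.1 and 228 CPM, at least 31.3-fold higher at P21 than at E19 with 0 counts taken as 3. The other inhibitory neurons held 1.98, 3.49, 6.39 and 70.2 CPM. Dync1i1, a subunit of the dynein motor, stood at 19.4, 190.2, 279 and 472 CPM, Flt3, a receptor tyrosine kinase, at 4.85, 47.6, 103 and 179 CPM, and Sgpp2, a sphingosine phosphate phosphatase, at 4.85, 0, 1.32 and 163 CPM, where nearly all of the difference lay between P8 and P21. Htr2c, the serotonin 2C receptor, stood at 21.8, 79.3, 138 and 569.7 CPM in IN8 and 138, 212, 144 and 513 CPM in the others. Summed over its nuclei, IN8 was thus lower at E19 and P4 and near the others at P8 and P21. Its 3 sets were not alike: clusters 2, 10 and 11 held 208, 76.2 and 64.4 CPM at P8. At P21 they held 934, 451 and 155 CPM, so cluster 2 lay above the others and cluster 11 below. The noncoding RNAs Lncpint (33.9, 68.7, 82.9 and 704 CPM), Gm28928 (75.2, 66.0, 195 and 1521 CPM) and Gm13629 (7.27, 18.5, 23.7 and 288 CPM) were likewise highest at P21. Gm13629 lies antisense to the sodium channel gene Scn9a, and since no source here says if reads were counted by strand, its UMIs may include some of that gene.

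**Figure D4:**
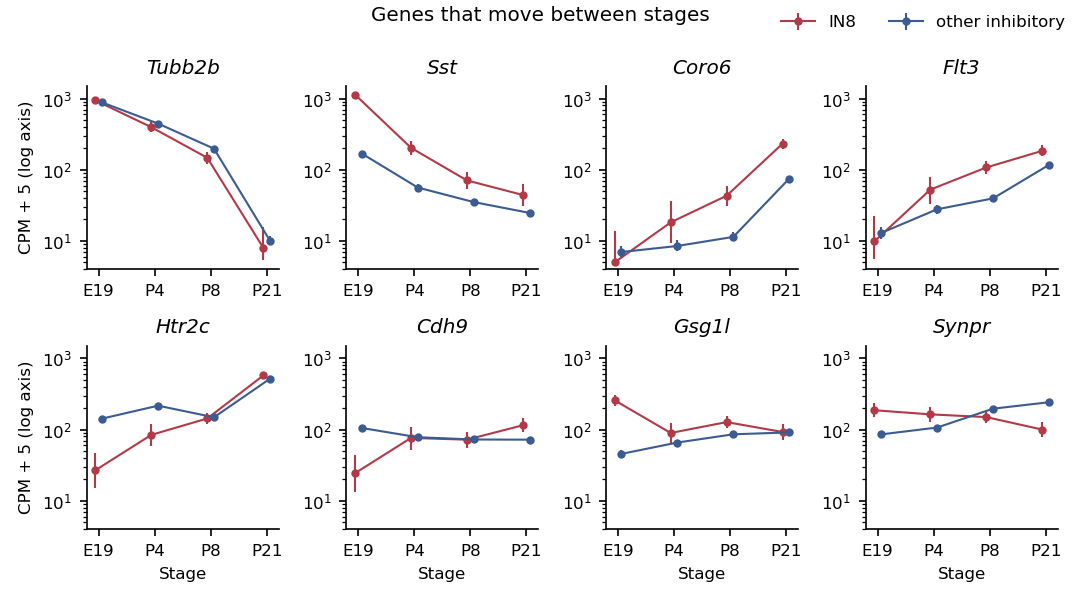
Level of 8 genes on a log axis of CPM + 5 (vertical axis) at the 4 stages (horizontal axis) in IN8 (red) and the other inhibitory neurons (blue), 1 library per stage, bars the exact 95% Poisson interval. Tubb2b and Sst decline in both groups and Coro6 and Flt3 climb in both; Cdh9, Gsg1l and Synpr move in opposite directions in the 2 groups between E19 and P21.

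Single steps added a few genes. From E19 to P4, the largest ratios upward were those of Dync1i1, AC149090.1 (75.2 to 483 CPM) and Akap17b, an A-kinase anchoring protein (19.4 to 132 CPM), and downward those of Sst, Pbx3 and Tpt1, which encodes the translationally controlled tumour protein (177 to 44.9 CPM). Pbx3 went from 581 to 18.6 CPM in cluster 2, where E19 had 10 nuclei, and from 73.2 to 23.9 CPM in cluster 10. In cluster 11 it read 26.6 and 26.3 CPM. From P4 to P8 the largest ratios upward were those of Gm28928, Gm17276 and Cit, the citron kinase (97.7 to 260.5 CPM), and downward those of Tmsb10, Sst and Erbb4, a neuregulin receptor. Erbb4 stood at 162, 409, 112 and 98.0 CPM in IN8, with its highest value at P4, and at 467, 459, 327 and 299 CPM in the other inhibitory neurons, and the P4 value was carried by the 13 nuclei of cluster 10, which held 177, 980.2, 109 and 69.7 CPM at E19, P4, P8 and P21 (123 UMIs at P4). Clusters 2 and 11 held 206, 155, 141 and 144 and 66.4, 52.6, 59.5 and 55.5 CPM, with no such value at P4. From P8 to P21 they were Gm13629, Sgpp2 and Fmn1, a formin that nucleates actin (5.26 to 109 CPM), and downward Tubb2b, Nnat and Zfp57, a factor that maintains imprints (101 to 6.03 CPM).

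For each gene the E19 to P21 ratio of the other inhibitory neurons was subtracted from that of IN8. The difference was 1 or more for 89 of 2462 genes (3.61%) and -1 or less for 47 (1.91%), and its median was 0.04. Among the genes above, Cdh9, a cadherin that acts in synapse formation, stood at 19.4, 71.3, 67.1 and 110.0 CPM in IN8 and 100.2, 73.1, 67.5 and 67.1 CPM in the others, a difference of 2.78 (counting interval 1.91 to 3.65). Slc9a9, an endosomal sodium-proton exchanger, stood at 38.8, 111, 138 and 169 CPM against 164, 171, 156 and 132 CPM, and Plxdc2, a plexin-domain membrane protein, at 24.2, 148, 118 and 189.9 CPM against 354, 315, 355 and 431 CPM. In all 3 genes and in Htr2c the gap was widest at E19, where the ratio of IN8 to the other inhibitory neurons was -2.11, -1.95, -3.62 and -2.41 in that order. Cadps2, which acts in the release of dense-core vesicles, stood at 46.1, 177, 199 and 243 CPM against 75.7, 109, 39.1 and 76.1 CPM, but the 3 sets of IN8 nuclei did not move together: cluster 2 held 38.7, 279, 323 and 527 CPM and cluster 10 61.6, 135, 142 and 10.7 CPM.

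Among the genes below, Gsg1l, an auxiliary subunit of AMPA receptors, stood at 252, 84.5, 122 and 87.4 CPM in IN8 and 40.5, 60.7, 80.8 and 86.2 CPM in the others, a difference of -2.48 (counting interval -2.96 to -1.99), and its P21 levels were alike. Synpr, the synaptic vesicle protein synaptoporin, stood at 182, 159, 145 and 95.0 CPM against 80.6, 102, 191 and 237 CPM, a difference of -2.40 (counting interval -2.89 to -1.92); clusters 2 and 10 declined (323, 124, 85.4 and 87.8 and 185, 303, 294 and 91.2 CPM) while cluster 11 went from 26.6 to 111 CPM. Lmo1, a LIM-only transcriptional cofactor, stood at 468, 259, 201 and 45.2 CPM against 121, 101, 156 and 52.4 CPM. Summed over its nuclei, IN8 thus exceeded the others at E19 and P4 and not at P21. Clusters 10 and 11 carried the excess of Lmo1, at 535 and 319 CPM and at 611 and 644 CPM at E19 and P4. Cluster 2 held 103 and 30.97 CPM of Lmo1 at these stages, not above the others. Its share of IN8 nuclei was 15.2% at E19 and 50.8% at P8, so the summed series also carries this change of mix. St8sia2 and the noncoding RNA Gm20754 (618, 534, 214 and 46.7 against 784, 642, 622 and 272 CPM) completed the 5. Of the 24 genes ranked for the whole span or for this difference, 22 had the same sign in all 3 sets of IN8 nuclei, Cadps2 and Synpr being the exceptions. The genes were ranked in the sum of these same nuclei, so agreement in sign follows largely from the choice. The share over all genes compared was not computed.

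Gene lists summarise the same E19 to P21 comparison, against 13.9% higher and 13.0% lower over all genes. Of 24 genes of immature neurons with enough reads, 0 were higher and 23 lower by a log2 ratio of 1 or more, with a median of -3.06 in IN8 and -2.32 for the same genes in the other inhibitory neurons; the one not past the limit was Cttnbp2 (0.25). Of 18 genes of mature neurons, 12 were higher and 0 lower, with medians of 1.13 and 0.80. Syt2, a fast calcium sensor of release, stood at 17.0, 26.4, 53.9 and 175 CPM, the kinase gene Camk2a at 112, 153, 203 and 338 CPM and Snap25, of the vesicle fusion complex, at 189, 214, 263 and 603 CPM. Rbfox3, a splicing factor of mature neurons, went the other way, at 616, 473, 513 and 392 CPM in IN8 and 341, 342, 367 and 396 CPM in the others.

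**Figure D5:**
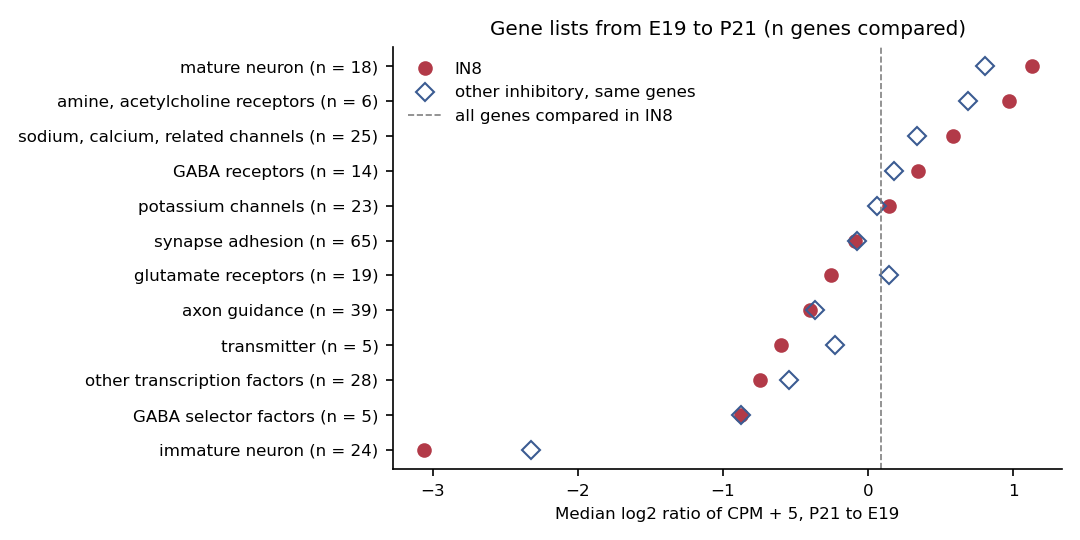
Median log2 ratio from E19 to P21 (horizontal axis, CPM + 5) of each gene list with 5 or more genes compared (vertical axis, n genes), in IN8 (filled circles) and for the same genes in the other inhibitory neurons (open diamonds); the dashed line is the median of all genes compared in IN8. The immature neuron list lies at -3.06 in IN8 and the mature neuron list at 1.13.

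Among transmitter genes, 0 of 5 compared were higher and 1 lower from E19 to P21: Slc32a1 had a ratio of -1.30 (-1.89 to -0.71), Gad1 -0.78 and Gad2 -0.60, while Abat, which breaks GABA down, had 0.73. None of the list's 4 genes compared with the other inhibitory neurons passed the limit in all libraries. The only peptide genes at 100 CPM or more in a library were Sst and Nxph1. Reln, which encodes the secreted protein reelin, stood at 46.1, 58.1, 32.9 and 10.6 CPM in IN8 and 190.3, 188, 292 and 325 CPM in the other inhibitory neurons, with ratios of -1.94, -1.61, -2.97 and -4.41, and it was among the 22 lower genes. Necab1, a neuronal calcium-binding protein, had ratios of 1.16, 1.28, 1.19 and 0.40.

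Of the peptide receptor genes 0 had enough reads in every library for the comparison with other inhibitory neurons, and of 3 amine and acetylcholine receptor genes 0 were higher and 0 lower in all libraries. Single receptor genes are given as values. Tacr1, the substance P receptor, stood at 17.0, 58.1, 49.99 and 60.3 CPM in IN8 and 20.2, 18.6, 11.5 and 10.6 CPM in the others, so the groups parted after E19; these values rest on 7, 22, 38 and 40 UMIs. Its mean was highest in IN8 of all 12 subtypes, as were those of Crhr1, a receptor of corticotropin-releasing hormone (109, 87.2, 93.4 and 73.9 against 35.3, 38.8, 53.6 and 31.4 CPM), and Htr1f, a serotonin receptor (53.3, 71.3, 139 and 175 against 34.96, 39.6, 49.9 and 71.6 CPM). Chrm2, a muscarinic receptor, diverged downward, at 221, 174, 178 and 164 against 271, 288, 382 and 502 CPM, while Chrm3 was higher in every library, with ratios of 0.80, 0.52, 0.84 and 0.81. Of 6 amine and acetylcholine receptor genes compared from E19 to P21, 3 were higher (Htr2c, Htr4 and Htr1f) and 1 lower (Cnr1, the cannabinoid receptor, at 141, 66.0, 59.2 and 58.8 CPM). The shares over all genes were 13.9% higher and 13.0% lower.

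Over all genes compared from E19 to P21, 13.9% were higher and 13.0% lower. Of 19 glutamate receptor genes, 3 were higher (Gria3 2.03, Grin1 1.39 and Grin2a 1.09) and 1 lower, the kainate receptor gene Grik1 (-1.71). The list median was -0.26 in IN8 and 0.14 in the other inhibitory neurons, on opposite sides of 0. Gria3 stood at 124, 227, 263 and 522 CPM in IN8 and 293, 220.5, 235 and 427 CPM in the others. Its ratios of IN8 to the others were -1.21, 0.04, 0.16 and 0.29, so the gap was widest at E19, with IN8 lower. The GABA and glycine receptor list had 3 of 14 genes higher (among them Glrb 1.21 and Gabrb2 1.19) and 1 lower, Gabra5 (-1.30).

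The 2 channel lists were compared from E19 to P21, where 13.9% of all genes compared were higher and 13.0% lower. Of 25 sodium, calcium and related channel genes 8 were higher and 4 lower, with a median of 0.59 in IN8 and 0.34 for the same genes in the other inhibitory neurons: the sodium channel gene Scn1a stood at 194, 312, 389 and 704 CPM, while Cacng4, an auxiliary subunit, was at 196, 156, 143 and 10.6 CPM. Of 23 potassium channel genes 5 were higher and 0 lower, with a median of 0.14 in IN8, 0.06 in the others and 0.09 over all genes, among them Kcnab1 at 26.7, 47.6, 77.6 and 258 CPM. Kcnip1, which binds Kv4 channels, was higher in IN8 than in the other inhibitory neurons in each library, with ratios of 0.84, 1.19, 1.56 and 1.06.

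Guidance and adhesion genes were counted in the same way, against 13.9% higher and 13.0% lower over all genes from E19 to P21. Of 39 axon guidance genes 2 were higher and 10 lower from E19 to P21, with a median of -0.40 in IN8 and -0.36 in the others: Epha6 stood at 325, 753, 908 and 886 CPM and Sema5a at 65.5, 222, 213 and 175 CPM on the higher side, and Gap43, a growth cone protein, at 463, 396, 267 and 72.3 CPM and Chl1 at 225, 246, 122 and 22.6 CPM on the lower. Against the other inhibitory neurons, 1 of 36 guidance genes was higher in all libraries (Sema5b) and 2 lower (Ntng1 and Cntn3, 1.33% being the share over all genes). Of 65 synapse and adhesion genes 7 were higher and 8 lower, among them Il1rap at 14.5, 74.0, 55.2 and 139 CPM and Cdh18 at 267, 729, 1016 and 1709 CPM on the higher side, with a median of -0.09.

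Transcription factors were also compared with the other inhibitory neurons: of 23 outside the GABA selector list, 3 were higher in all libraries (Nfib, Tfap2b and Bcl11a) and 6 lower, against 0.667% and 1.33% over all genes. From E19 to P21, 2 of 28 were higher (Esrrg, an orphan nuclear receptor, at 145, 164, 204 and 500.4 CPM, and Tox2) and 11 lower, with a median of -0.75 in IN8 and -0.54 in the others. The shares over all genes were 13.9% higher and 13.0% lower. Sox11 and Sox4, factors of young neurons, stood at 213, 119, 94.7 and 12.1 and 175, 60.8, 68.4 and 10.6 CPM. The list named GABA selector factors also holds cofactors and other factors that do not themselves set GABAergic fate. Of its 5 genes compared, 0 were higher and 2 lower from E19 to P21, the LIM-only cofactors Lmo1 and Lmo4. Gata3 stood at 107, 156, 124 and 61.8 CPM in IN8 and 153, 126, 120.3 and 81.3 CPM in the others, and Otx2 at 97.0, 87.2, 61.8 and 61.8 and 140.2, 103, 188 and 97.7 CPM. Pax3 was near 0 in IN8, at 2.42, 5.28, 0 and 1.51 CPM, against 34.2, 54.8, 21.02 and 35.5 CPM.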

How the data were processed

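Nuclei of 4 libraries, 1 per stage, were captured with 10x Genomics 3′ v3 chemistry, and reads were aligned with Cell Ranger 3.0.2 to a pre-mRNA reference made from mm10, per the labels' protocols and the submitters' processing notes. The deposited values are raw UMI counts per gene and nucleus (31053 genes), not normalised, which the authors placed in 1 matrix with a table of class, subtype, cluster, reference labels and stage. Mitochondrial UMIs, deposited as a percent by the authors, reached at most 5 per nucleus. Doublet removal, integration and clustering by the authors are not given in the sources used here. A further 4 columns of that table were not used, no doublet caller was run and no nucleus was removed.

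UMIs were summed per library over IN8 and over the other inhibitory neurons and scaled to CPM. Ratios were log2 with 5 CPM added, which understates the change of low genes. A gene was compared at 100 CPM or more on the higher side and counted as higher or lower at a log2 ratio of 1 or more. Intervals were exact Poisson (CPM) and exact Clopper-Pearson (shares) at 95%, for ratios a normal approximation to Poisson error, and all cover counting error only. A count of 0 was taken as 3 per library for folds. With 1 library per stage no test was made and no p-value computed. Thinning drew 2300 UMIs per nucleus and left out no neuron. The procedure was tested on simulated counts.

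Genes named were the 15 highest and 10 lowest against other inhibitory neurons by the weakest library, the 8 largest ratios each way from E19 to P21 and 3 per step, 5 each way for the difference of changes and against each of the 2 nearest subtypes, 8 per cluster, and up to 3 each way per list. Mitochondrial, ribosomal protein and haemoglobin genes, Xist, Tsix and a set of Y-linked genes were left out of the rankings. Other X-linked genes, such as Htr2c, stayed in. Pax7 and Zfhx3 in the clusters, Rbfox3, Reln and the single receptor genes were picked from the named genes after their values were seen. The members, the 15 lists (596 genes) and the comparisons were chosen with earlier results of these data known. Gene positions are from GENCODE M21 on GRCm38, 1-based, in which 99.9% of identifiers were found. Of 217 genes named by these rules, 65 overlapped no other annotated gene, 95 overlapped one on the same strand and 128 one on the opposite strand. No source here says if reads were counted by strand, so overlapping genes may share UMIs. Some genes of the receptor and channel lists are not reported here. Alternatives changed the added CPM, the minimum, the scaling, the weights of nuclei, subtypes and clusters, depth and the mixed nuclei. Python (version 3.11.15), NumPy 2.4.6, SciPy 1.17.1, pandas 2.3.3 and matplotlib 3.10.9 were used.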

Additional observations from a re-analysis of the deposited data

Results flagged for a closer look

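From E19 to P21, 4 of the 10 genes ranked for the difference of changes had ratios of opposite sign in IN8 and in the other inhibitory neurons. The log2 ratio was 2.24 in IN8 and -0.54 in the others for Cdh9, a difference of 2.78. It was 1.99 and -0.30 for Slc9a9, a difference of 2.29. It was -1.48 and 1.00 for Gsg1l, a difference of -2.48, and -0.90 and 1.5003 for Synpr, a difference of -2.40. The differences were not tested, since each stage had 1 library. Cdh9, Slc9a9 and Gsg1l had the same sign in the IN8 nuclei of clusters 2, 10 and 11, but the E19 values of Cdh9 rest on 3, 2 and 3 UMIs there. Synpr did not: cluster 11 had a ratio of 1.88, from 2 UMIs at E19 to 20 at P21, against -1.82 and -0.98 in clusters 2 and 10. The clusters are parts of the sum in which these genes were ranked, so agreement in sign follows largely from the choice.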

How the results depend on the processing

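Over all neurons, IN8 made up 2.96, 2.21, 3.12 and 2.81% at E19, P4, P8 and P21, and over all nuclei 2.55, 1.80, 2.44 and 1.78%. Shares without mixed nuclei or without nuclei under 3000 UMIs stayed within the counting intervals. Leaving out 1 library at a time gave 11 to 17 genes higher than in other inhibitory neurons (11 with all 4) and 23 to 32 lower (22 with all 4), since fewer libraries had to pass; the 17 came without P21. For the counts between stages, with a minimum of 50 CPM, which compares more low genes, the values were 210 higher and 214 lower from E19 to P4, 50 higher and 103 lower from P4 to P8, 254 higher and 232 lower from P8 to P21 and 619 higher and 683 lower from E19 to P21. The values in the report were, in the same order, 82 higher and 68 lower from E19 to P4, 20 higher and 34 lower from P4 to P8, 108 higher and 116 lower from P8 to P21 and 341 higher and 321 lower from E19 to P21. With each nucleus thinned to 2300 UMIs, which leaves fewer counts, they were 242 higher and 185 lower from E19 to P4, 136 higher and 151 lower from P4 to P8 and 279 higher and 218 lower from P8 to P21. With 20 CPM added, 9 genes were higher from P4 to P8 (20 with 5 CPM), and 30 genes had a change 1 or more below that of other inhibitory neurons (47 with 5 CPM). No gene named by its rank changed sign in 612 recomputed values for 69 gene results; 523 stayed within the counting interval. With the 3 clusters of IN8 weighted alike, an alternative chosen after seeing the data, 10 of the 11 higher genes (all but Sema5b) and 19 of the 22 lower genes (all but Egfem1, Foxp2 and Zmat4) stayed past the limit. With nuclei thinned, 8 of 11 and 19 of 22 did, Tcf4, Tmem132c and Zfp536 being the higher genes that did not. The other inhibitory subtypes weighted alike kept 10 of 11 (not Tcf4) and 20 of 22. Median-of-ratios scaling moved the IN8 libraries by 0.04 or less on the log2 scale. No paired analysis was possible because each stage was 1 library and the replicate number 1 names no shared source. With 40 to 66 nuclei per stage, genes at low CPM rest on few UMIs, and small differences in them were not resolved at this depth.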

Other observations

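A few further genes of the lists followed a course in IN8 that differs from that of the other inhibitory neurons; they were picked after their values were seen, with 1 library per stage and no test. Ncald, the calcium sensor neurocalcin delta, stood at 121, 322, 343 and 228 CPM in IN8 at E19, P4, P8 and P21 and at 345, 351, 316 and 205 CPM in the other inhibitory neurons. Its counting interval at E19 was 89.98 to 159.8 CPM in IN8, below that of the others (329.8 to 361), while at P21 the intervals overlapped. Lmo4, a LIM-only cofactor, stood at 148, 174, 137 and 54.3 CPM against 46.9, 50.8, 65.1 and 53.9 CPM, higher in IN8 up to P8 and with overlapping intervals at P21. Kcnh8, a potassium channel gene, stood at 77.6, 68.7, 47.4 and 3.01 CPM against 165, 136, 109.8 and 47.9 CPM, lower in IN8 in each library; the IN8 values rest on 32, 26, 36 and 2 UMIs.

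Summed epithelial markers read 0, 100.4, 1.32 and 4.52 CPM in IN8 and 0.541, 97.2, 2.13 and 1.504 CPM in the other inhibitory neurons, so the P4 library stood apart in both groups alike. Astrocyte markers read 218, 206, 199.9 and 96.5 CPM in IN8 and 178, 178, 180.3 and 91.5 CPM in the others. The part of such RNA in single genes of these lists was not tested.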
